A study of Komagataella pastoris with 4 samples.

Results

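The carnitine shuttle genes of *Pichia pastoris* (*Komagataella phaffii*) are 4 of the 5427 rows of a gene count table, and they were chosen by gene identifier: *CRC1* (ACIB2EUKG769778), *YAT1* (ACIB2EUKG768637), *CAT2* (ACIB2EUKG771954) and *AGP2* (ACIB2EUKG771103). Their RNA was compared between Dmxr1 and GS115 after 14 h in yeast nitrogen base with ethanol as the carbon source (YNBE). Dmxr1 carries a zeocin resistance cassette in *MXR1*, which encodes Mxr1p, a transcription factor with zinc fingers. GS115 is its parent, with an intact *MXR1* and no antibiotic resistance, and both strains are histidine auxotrophs. Each strain was represented by 2 libraries, which the study made from duplicate cultures of a single disrupted strain and a single parent. The p-values therefore measure the spread between these libraries. The study reported that Dmxr1 grew significantly more slowly than GS115 in YNBE. The sources used here do not give the cell density at harvest. Effects of the disruption and of a difference in growth or growth stage cannot be told apart.

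Acetyl-CoA does not cross the membranes of organelles. In yeasts, carnitine acetyltransferases move the acetyl group from coenzyme A to carnitine on the side of the membrane where it was made, and the acetylcarnitine is carried across and turned back into acetyl-CoA on the other side. Cells that live on ethanol make acetyl-CoA from acetate, outside the mitochondrial matrix, and the shuttle is a known route by which it can enter the tricarboxylic acid cycle. In *Saccharomyces cerevisiae*, Crc1 is the acetylcarnitine carrier of the mitochondrial inner membrane, Yat1 is the acetyltransferase of the mitochondrial outer membrane, Cat2 is the acetyltransferase of mitochondria and peroxisomes, and Agp2 is a plasma membrane permease known for its part in carnitine uptake. The roles in *P. pastoris* are read here from the descriptions in the table. Those of *CRC1*, *YAT1* and *CAT2* name carnitine, whereas that of *AGP2* reads general amino acid permease.

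The libraries held 25524047 and 27988540 counts in Dmxr1, and 24140235 and 29402357 counts in GS115. The *MXR1* row (ACIB2EUKG772516) still collected 206 and 258 CPM (counts per 1000000, on library sizes adjusted by trimmed means of M values, TMM) in Dmxr1, against 287 and 405 CPM in GS115. Where in *MXR1* these reads lie is not shown by the table, so this row does not check the labels. The aldehyde dehydrogenase gene *ALD6-1* (ACIB2EUKG773017) had 39.4 and 48.9 CPM in Dmxr1 libraries and 1824 and 1953 CPM in GS115 libraries. The study picked this gene from these same libraries, but also reported it lower in the mutant by quantitative PCR. In that respect each pair of libraries went with its label.

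All 4 genes were called different between the strains, 3 of them higher and 1 lower in Dmxr1. A gene was called where edgeR's quasi-likelihood test gave an adjusted p of at most 0.05 over all 5425 genes tested and the log2 fold change, Dmxr1 over GS115, was at least 1 in size. Calls in the higher direction made up 0.535% of all genes tested, and calls in the lower direction 3.26%. They were 29 and 177 genes, and 39 and 118 with library size alone in place of TMM scaling. The libraries of the strains did not overlap in any of the 4, as was so for 31.1% of all genes with Dmxr1 on top and 31.3% with Dmxr1 below. The genes had been singled out with these results known, so the count is a description of them.

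*CRC1*, the inner membrane carrier, lies on chromosome 2 and had 2070 and 1882 CPM in the Dmxr1 libraries, against 267 and 293 CPM in the GS115 libraries. Both mutant libraries stood far above both parent libraries, and the means were 1976 ± 133 CPM in Dmxr1 and 280 ± 18.2 CPM in GS115 (SD, n = 2 each). The raw counts behind these values were 55595 and 53057 in Dmxr1, and 5717 and 9163 in GS115. Its log2 fold change was 2.82 (SE 0.22, 95% confidence interval 2.35 to 3.29, edgeR adjusted p = 1.35e-06). That is 7.06-fold higher in Dmxr1, with an interval of 5.10 to 9.75, and it ranked 1 of 5425 from the highest.

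*YAT1*, the outer membrane acetyltransferase, lies on chromosome 1 and had 5753 and 5838 CPM in Dmxr1, against 1541 and 1506 CPM in GS115. The libraries of a strain lay closer together here than in most genes, differing by 0.021 on the log2 scale in Dmxr1 and by 0.033 in GS115, where the medians over all genes were 0.169 and 0.199. The means were 5796 ± 60.2 CPM in Dmxr1 and 1523 ± 24.6 CPM in GS115 (SD, n = 2 each). The log2 fold change of *YAT1* was 1.93 (SE 0.23, 95% confidence interval 1.43 to 2.42, edgeR adjusted p = 0.000114), or 3.80-fold higher, and it ranked 5 from the highest.

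*CAT2*, the acetyltransferase of mitochondria and peroxisomes, lies on chromosome 3 and had 3457 and 3426 CPM in Dmxr1, against 728 and 1043 CPM in GS115. The strains did not overlap, but the GS115 libraries were farther apart than the Dmxr1 libraries. They differed by 0.52 on the log2 scale, more than 91.9% of all genes did in that strain, while the Dmxr1 libraries differed by 0.013. The means were 3441 ± 21.8 CPM in Dmxr1 and 886 ± 223 CPM in GS115 (SD, n = 2 each). The log2 fold change of *CAT2* was 1.96 (SE 0.24, 95% confidence interval 1.44 to 2.47, edgeR adjusted p = 0.000138), or 3.89-fold higher, and it ranked 4 from the highest.

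*AGP2*, the permease, lies on chromosome 3 and was the member that fell. It had 258 and 415 CPM in Dmxr1, against 855 and 532 CPM in GS115. The higher Dmxr1 library and the lower GS115 library lay within 1.28-fold of each other, so the strains were separated by less than the libraries within either strain. The means were 336 ± 111 CPM in Dmxr1 and 693 ± 229 CPM in GS115 (SD, n = 2 each). The libraries of a strain differed by 0.69 on the log2 scale in both Dmxr1 and GS115, which is more than 97.4% of genes in Dmxr1 and 97.2% of genes in GS115 did. The log2 fold change was -1.04 (SE 0.26, 95% confidence interval -1.60 to -0.49, edgeR adjusted p = 0.0148), or 2.06-fold lower, and it ranked 146 from the lowest. The call was lost without GS115 replicate 1, at a log2 fold change of -0.66 and an adjusted p of 0.0871, and without Dmxr1 replicate 1, at -0.74 and an adjusted p of 0.192. It was also lost with library size alone (-0.94), with upper-quartile scaling (-0.97) and with a replicate block (adjusted p = 0.0698).

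**Figure D1:**
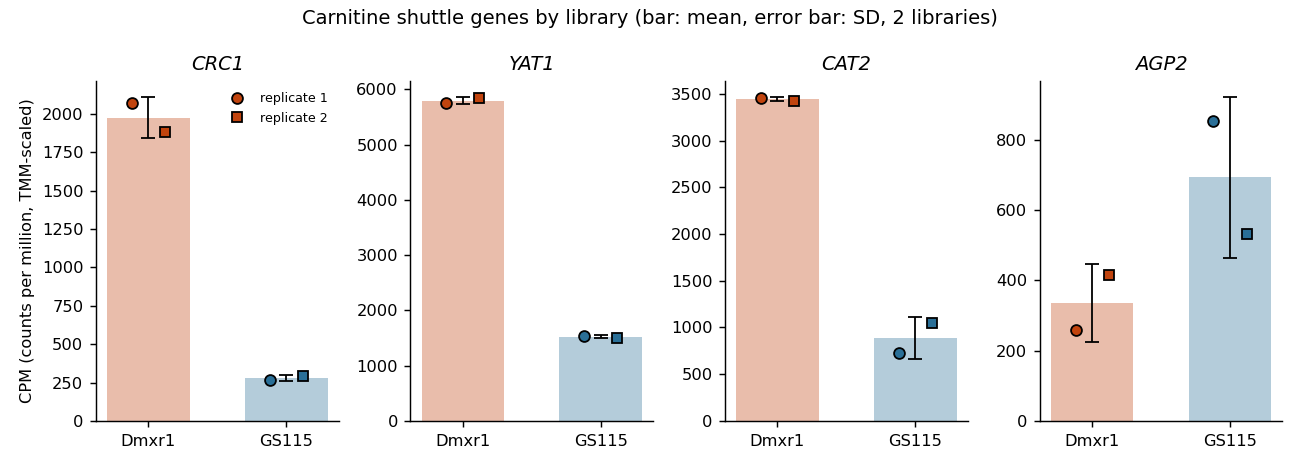
CPM of each carnitine shuttle gene in the 2 Dmxr1 libraries (left) and the 2 GS115 libraries (right) on linear axes that start at 0. Bars are means and error bars SDs. *CRC1*, *YAT1* and *CAT2* stood at means of 1976, 5796 and 3441 CPM in Dmxr1 against 280, 1523 and 886 CPM in GS115, and *AGP2* at 336 against 693 CPM.

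The calls were also set against a stricter question, whether a change is larger than the threshold of 1 itself rather than different from 0. In edgeR's test against that threshold (glmTreat), 5 genes in the whole table passed in the higher direction (0.0922% of those tested), and 3 of the 5 were *CRC1* (adjusted p = 3.96e-05), *YAT1* (adjusted p = 0.0214) and *CAT2* (adjusted p = 0.0220). *AGP2* was not among the 16 genes that passed in the lower direction (0.295%). Its interval includes -1.

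**Figure D2:**
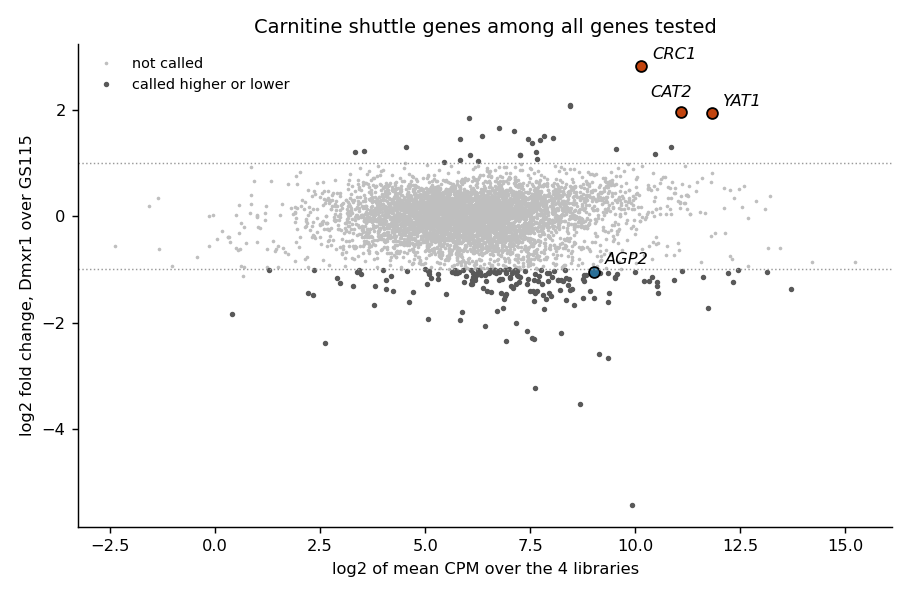
Log2 fold change, Dmxr1 over GS115, against the log2 of the mean CPM for all 5425 genes tested; dark points were called, dotted lines mark the threshold of 1 in either direction. *CRC1* is the highest point at 2.82, *CAT2* (1.96) and *YAT1* (1.93) lie to its right, and *AGP2* (-1.04) sits at the lower threshold.

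The genes that were higher took up a visible part of each library. *CRC1*, *YAT1* and *CAT2* together held 1.19% and 1.12% of all counts in the Dmxr1 libraries, against 0.225% and 0.302% in the GS115 libraries. The Wilson 95% intervals of this summed share reached at most 0.0042 percentage points to either side, counting error only, so the differences between libraries of a strain exceed counting error.

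The estimated factors of change were not quite the same for the 3 genes, but the 95% confidence intervals of their log2 fold changes overlap. The count of *CRC1* per count of *YAT1* was 0.360 and 0.322 in Dmxr1, against 0.173 and 0.194 in GS115. Per count of *CAT2*, *CRC1* had 0.599 and 0.549 in Dmxr1, against 0.367 and 0.281 in GS115. In these libraries the ratios of the carrier to the acetyltransferases were thus higher in Dmxr1, by 1.85-fold and 1.79-fold, with no overlap between strains. The ratio of *YAT1* to *CAT2* was 1.66 and 1.70 in Dmxr1 and lay inside the GS115 values of 2.12 and 1.44. In an exact two-sided permutation test over the libraries the first 2 ratios gave p = 0.333, the smallest that 2 libraries against 2 allow, and *YAT1* over *CAT2* gave p = 1. With so few libraries this test cannot decide whether the factors differ. Gene lengths were not used here, so these ratios are read only as changes between strains and not as which transcript was more abundant.

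The third row annotated as a carnitine acetyltransferase (ACIB2EUKG771196, chromosome 3) was not called. It had 1568 and 1248 CPM in Dmxr1, against 1363 and 1434 CPM in GS115. Its strains overlapped and its log2 fold change was 0.010 (SE 0.21, 95% confidence interval -0.45 to 0.47, edgeR adjusted p = 0.977). The interval leaves out changes as large as those of *YAT1* and *CAT2*. Of all counts in the 3 acetyltransferase rows, *YAT1* held 53.4% and 55.5% in Dmxr1, against 42.4% and 37.8% in GS115. *CAT2* held 32.1% and 32.6% in Dmxr1, against 20.0% and 26.2% in GS115. The third row was left with 14.5% and 11.9% in Dmxr1, against 37.5% and 36.0% in GS115. The widest Wilson 95% interval of these shares was 0.35 percentage points to either side, counting error only. Libraries of a strain differed by more than this in each of the 3 rows.

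**Figure D3:**
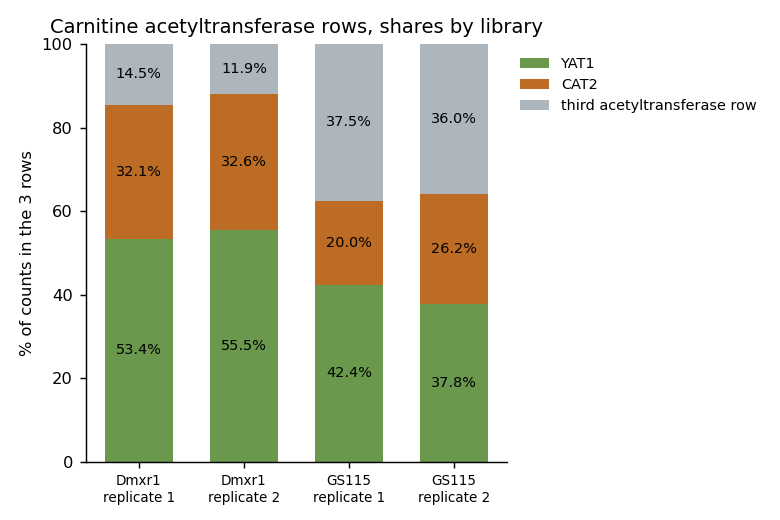
Share of the counts in the 3 carnitine acetyltransferase rows held by each, for the Dmxr1 libraries (left) and the GS115 libraries (right). The third row shrinks to 14.5% and 11.9% in Dmxr1, against 37.5% and 36.0% in GS115, while its own log2 fold change was 0.010.

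Carnitine itself can be made from trimethyllysine, a modified lysine, and some yeasts carry the enzymes for this while *S. cerevisiae* does not. A row described as trimethyllysine dioxygenase, the first enzyme of that route (ACIB2EUKG768216), had 240 and 249 CPM in Dmxr1, against 168 and 196 CPM in GS115. The strains did not overlap, but its log2 fold change of 0.43 (SE 0.18) did not pass (edgeR adjusted p = 0.125). The gamma-butyrobetaine dioxygenase row, the last enzyme (ACIB2EUKG768978), had 1471 and 1083 CPM in Dmxr1, against 752 and 827 CPM in GS115. Its log2 fold change of 0.69 (SE 0.22) passed on adjusted p (0.0425) and fell short of the fold threshold, so it was not called.

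A further 3 rows share a KEGG carnitine carrier entry with *CRC1*, although their descriptions name other mitochondrial carriers. The YMC3-like row (ACIB2EUKG768502) had 52.8 and 51.4 CPM in Dmxr1 and 39.9 and 38.4 CPM in GS115, with a log2 fold change of 0.41 (edgeR adjusted p = 0.101). The SCaMC-1-like row (ACIB2EUKG770190) had 60.0 and 42.6 CPM in Dmxr1 and 53.1 and 45.7 CPM in GS115, which overlap (0.056 on the log2 scale, adjusted p = 0.865). The YMC1-like row (ACIB2EUKG773011) had 45.0 and 42.0 CPM in Dmxr1 and 50.7 and 49.2 CPM in GS115 (-0.20, adjusted p = 0.428). The carnitine list had 10 rows, with *AGP2* in it as a member although its description does not name carnitine. Of these, 3 were called higher, 1 (*AGP2*) was called lower and 6 were not called. Over all genes tested, 0.535% were called higher and 3.26% lower. Without *AGP2* and the 3 rows named as other carriers, 3 of 6 rows were called higher and 0 lower. This shorter list was not planned and leaves out the only row called lower. Its 3 called rows are the members *CRC1*, *YAT1* and *CAT2*, which were chosen with their results known. The 6 rows not called had a median log2 fold change of 0.23, against 0.0041 over all genes tested.

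**Figure D4:**
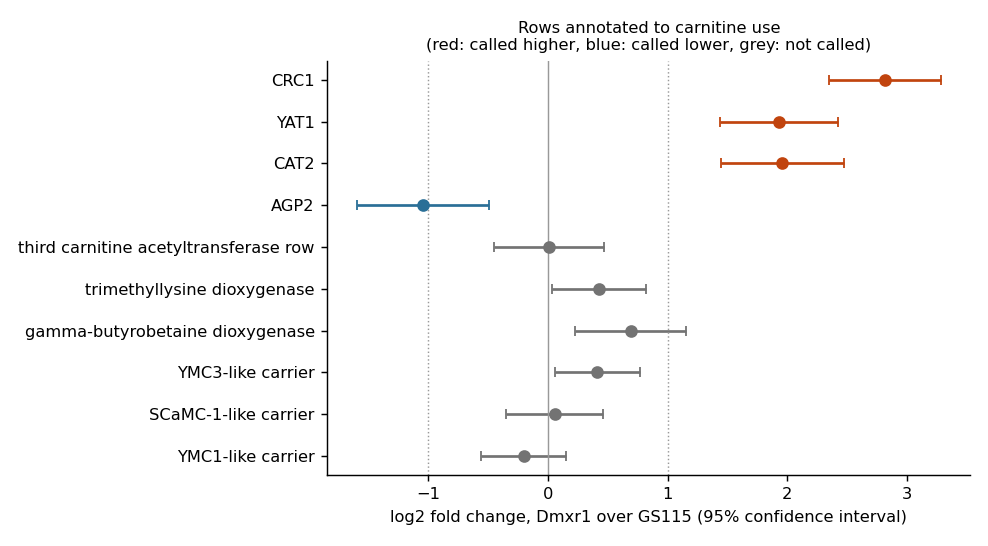
Log2 fold change, Dmxr1 over GS115, with 95% confidence intervals for the 10 rows of the carnitine list, *AGP2* included as a member. The solid line is 0 and dotted lines are the threshold of 1 in either direction. *CRC1*, *YAT1* and *CAT2* have intervals wholly above 1, *AGP2* spans -1, and the other 6 rows lie between -0.20 and 0.69.

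Of 34 mitochondrial carrier rows, the family of *CRC1*, 1 was called by the test with TMM scaling, *CRC1* itself, where 3.80% of all genes were called in either direction. The other 33 had a median log2 fold change of 0.056, against 0.0041 over all genes tested. Other carriers that passed on adjusted p alone in the higher direction numbered 4, where 5.07% of all genes tested did so, and those named here were chosen after their values were seen. Among them were the succinate/fumarate carrier (ACIB2EUKG772306), which had 1613 and 1389 CPM in Dmxr1 and 807 and 753 CPM in GS115 (log2 fold change 0.94, edgeR adjusted p = 0.00753), and an ADP/ATP carrier (ACIB2EUKG772839, 0.93, adjusted p = 0.0110). These 2 were called with library size alone (1.03 and 1.02) and, just past the threshold, with upper-quartile scaling. A mitochondrial iron carrier (ACIB2EUKG772404) passed on adjusted p in the lower direction, as 10.5% of all genes did, at -0.59 (adjusted p = 0.0412).

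A list of 26 amino acid permease and transporter rows, *AGP2* among them, was matched by annotation text and also holds vacuolar transporters. It is therefore wider than the family of *AGP2*. Of its rows, 5 were called lower and 1 higher, where 3.26% of all genes were called lower and 0.535% higher. Without *AGP2* the 25 rows had a median of -0.24 on the log2 scale, and whether the list differs from other genes was not tested. The other 4 lower rows were a tryptophan and tyrosine permease (ACIB2EUKG769072, log2 fold change -1.10), a dicarboxylic amino acid permease (ACIB2EUKG772748, -1.24), a low-affinity methionine permease (ACIB2EUKG772946, -1.23) and a row named both as an amino acid permease and as an acetate transporter (ACIB2EUKG770043, -1.41). The higher row was a basic amino acid permease (ACIB2EUKG769368), with 376 and 249 CPM in Dmxr1 and 129 and 102 CPM in GS115 (1.44, edgeR adjusted p = 0.000799). Neither the 4 lower rows nor the higher row passed in glmTreat. With library size alone the tryptophan and tyrosine permease fell just short of the threshold, at -0.9999. Without GS115 replicate 1 this permease fell short at -0.84 and the methionine permease at -0.90. Without Dmxr1 replicate 1 the tryptophan and tyrosine permease was at -0.92, and the dicarboxylic permease, at -1.07, was no longer called.

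The name of *AGP2* is less certain than those of the other members. In *S. cerevisiae* Agp2 has also been described as a polyamine permease, and 3 rows of the table carry that name in a description or a UniRef entry. These rows were looked up after their values were seen. Besides *AGP2*, ACIB2EUKG770705 had 169 and 188 CPM in Dmxr1 and 134 and 105 CPM in GS115, a log2 fold change of 0.58 (SE 0.18, edgeR adjusted p = 0.0447), opposite in sign to *AGP2* and short of the fold threshold. ACIB2EUKG771104, in the row after *AGP2*, had 58.8 and 59.0 CPM in Dmxr1 and 75.9 and 74.7 CPM in GS115 (-0.35, adjusted p = 0.149), and its UniRef entry names a methyltransferase instead. Which row serves carnitine uptake in this yeast was not tested.

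The shuttle stands between enzymes that make acetyl-CoA and enzymes that use it. Of 15 rows of such enzymes and of steps next to them, 1 was called higher and 2 lower. Over all genes tested, 0.535% were called higher and 3.26% lower. The 15 rows had a median log2 fold change of 0.24, against 0.0041 over all genes tested. Isocitrate lyase of the glyoxylate cycle (ACIB2EUKG768919) had 1964 and 1968 CPM in Dmxr1 and 874 and 888 CPM in GS115, and it was called higher (1.16, SE 0.21, edgeR adjusted p = 0.00240). Citrate synthase (ACIB2EUKG768207), which brings acetyl-CoA into the tricarboxylic acid cycle, had 4162 and 5159 CPM in Dmxr1 and 2631 and 2654 CPM in GS115 (0.82, adjusted p = 0.0272, short of the fold threshold). Acetyl-CoA carboxylase (ACIB2EUKG768820), named after its values were seen, was also short of the fold threshold (0.89, edgeR adjusted p = 0.00895). The malate synthase rows did not pass, at 0.65 (ACIB2EUKG772859, adjusted p = 0.0683) and 0.55 (ACIB2EUKG769051, adjusted p = 0.0803).

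The 2 rows called lower belong to peroxisomal fatty acid breakdown. The acyl-CoA oxidase POX1 (ACIB2EUKG769134) had 181 and 143 CPM in Dmxr1 and 984 and 960 CPM in GS115 (log2 fold change -2.59, SE 0.21, edgeR adjusted p = 1.79e-06). The 3-ketoacyl-CoA thiolase (ACIB2EUKG769676) had 252 and 191 CPM in Dmxr1 and 701 and 593 CPM in GS115 (-1.54, SE 0.21, adjusted p = 0.000313). Of the acetyl-CoA synthetases, which activate acetate, ACS1 (ACIB2EUKG769911) had 2440 and 2638 CPM in Dmxr1 and 2462 and 2493 CPM in GS115, with a log2 fold change of 0.035 (95% confidence interval -0.43 to 0.50, adjusted p = 0.929). ACS2 (ACIB2EUKG771575) passed on adjusted p (0.0142) but not on fold, at 0.83. The synthetases were named after their values were seen.

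The 4 genes lie at separate places in the genome, on chromosomes 1, 2 and 3, and the rows next to them were looked at as well. Of 16 rows within 2 rows of a member, 1 was called higher and 15 were not called, where 3.80% of all genes were called in either direction. The called row adjoins *CRC1*: ACIB2EUKG769777, described as a component of the complex that nucleates microtubules, had 79.7 and 86.7 CPM in Dmxr1, against 23.4 and 37.1 CPM in GS115 (log2 fold change 1.45, SE 0.21, edgeR adjusted p = 0.000453). Its strains did not overlap. The sources used here do not give the strand setting of the counting, and reads of this row and of *CRC1* cannot be told apart with certainty where the genes touch. The row on one side of *YAT1* (ACIB2EUKG768638, an enolase-like protein) passed on adjusted p only, at 0.75 (adjusted p = 0.00789). In the lower direction a row on the other side of *YAT1* (ACIB2EUKG768635, a co-chaperone, -0.69, adjusted p = 0.0483) and a row beyond *AGP2* (ACIB2EUKG771105, an exoribonuclease, -0.60, adjusted p = 0.0343) passed on adjusted p only. Over all genes tested, 5.07% passed on adjusted p in the higher direction and 10.5% in the lower. With library size alone these 2 lower rows did not pass (edgeR adjusted p = 0.0513 and 0.0968), while the enolase-like row did (0.00205). The rows that passed on adjusted p only were named after their values were seen. The 4 rows around *CAT2* lay between -0.25 and -0.06.

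**Figure D5:**
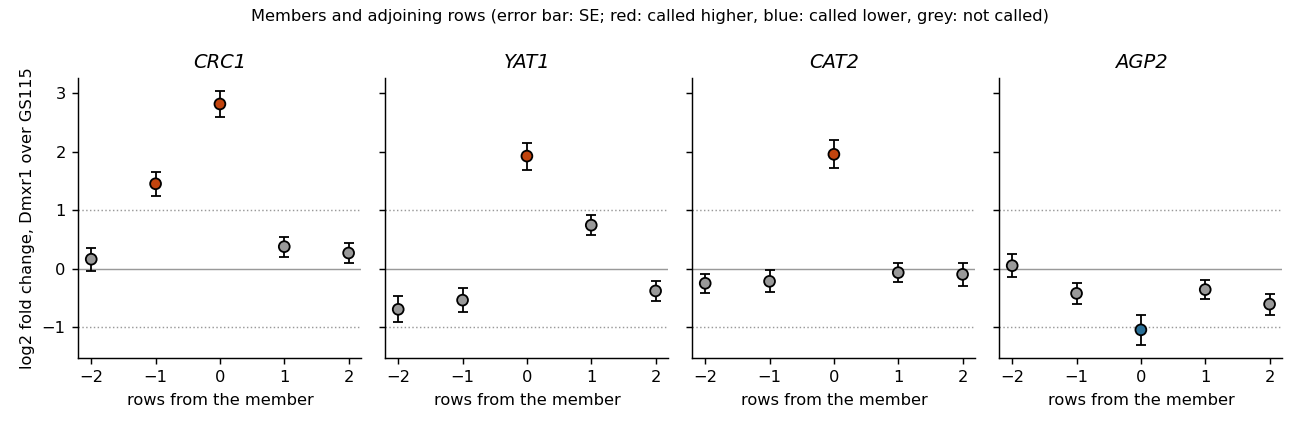
Log2 fold change, Dmxr1 over GS115, with its SE for each member (position 0) and for the 2 rows of the table on either side. The row before *CRC1* stands at 1.45, and the other 15 adjoining rows were not called.

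Profiles over the 4 libraries were compared by Euclidean distance between centred log2 CPM values, as a description. These distances reflect the fold changes already given as well as the spread between libraries, and shared regulation was not tested. *YAT1* and *CAT2* were each other's nearest gene in the whole table, at a distance of 0.39. Next to *YAT1* came an NADP-dependent isocitrate dehydrogenase (ACIB2EUKG770120, 0.41) and the ammonium transporter MEP2 (ACIB2EUKG768979, 0.49). Next to *CAT2* came ACIB2EUKG769777, the row that adjoins *CRC1* (0.51), and ACIB2EUKG772669, a row of uncertain function (0.51). *CRC1*, with the largest change of the 4 members, had its nearest genes farther off: MEP2 was nearest at 0.87, followed by *CAT2* at 0.89 and *YAT1* at 0.91.

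*AGP2* had near twins. The nearest were a row with an epsin-like domain (ACIB2EUKG772224, distance 0.089), a glycerol proton symporter (ACIB2EUKG770819, 0.10) and an ABC transporter (ACIB2EUKG770450, 0.10). The symporter had 165 and 253 CPM in Dmxr1 and 498 and 334 CPM in GS115. These genes share with *AGP2* the low first Dmxr1 library and the high first GS115 library, and leaving out either of those libraries took their fold changes to between -0.80 and -0.68 in the 2 that had been called (ACIB2EUKG772224 and ACIB2EUKG770450).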

How the data were processed

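RNA was isolated from whole cultures of Dmxr1 and GS115, depleted of ribosomal RNA and sequenced. Per the submitters' processing notes, fastp 0.19.6 trimmed the reads, Bowtie2 aligned them to the *K. phaffii* genome named in the study's methods, and featureCounts 1.6.4 counted them per gene. The deposited values are raw counts per gene made by the authors, without normalization. RNA from more expressing cells and more RNA per cell cannot be told apart in such counts. How reads with several alignments were treated is not given in the sources used here. Counts of near-identical genes are therefore uncertain.

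Rows reaching 5 counts in 2 or more libraries were scaled by TMM and fitted in edgeR 4.0.16 under R 4.3.3. Its quasi-likelihood p-values were adjusted by the method of Benjamini and Hochberg. The standard error is the log2 fold change divided by the square root of F. The log2 CPM values came from edgeR with a prior count of 2. DESeq2 1.42.0, limma 3.58.1 (voom), other scalings and filters, replicate blocks and leaving out libraries were alternatives. The fits were tested on simulated data. Libraries of a strain differed by more than sampling noise (chi-square per degree of freedom 93.2 in Dmxr1 and 173 in GS115).

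The members and lists were chosen with earlier results of these data known. Lists were matched by annotation text, except that *AGP2* entered the carnitine list as a member. Named genes were the members, the other carnitine rows, list members past the threshold, citrate synthase, isocitrate lyase and malate synthase, the 3 nearest profiles of each member, *MXR1* and *ALD6-1*; exceptions are marked in the text. Replicate deviations of the strains correlated at -0.14, so the replicate numbers were not taken to pair the libraries.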

Additional observations from a re-analysis of the deposited data

How the results depend on the processing

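*CRC1*, *YAT1* and *CAT2* were called higher under all 14 alternatives, with log2 fold changes between 2.75 and 2.89, 1.91 and 2.01, and 1.72 and 2.24. *AGP2* kept its direction under all 14 and its call under 8. It fell short of the fold threshold with library size alone (-0.94) and upper-quartile scaling (-0.97), had an adjusted p of 1 in glmTreat (-1.04), and lay between -1.43 and -0.66 when a library was left out. With a replicate block *AGP2* was at -1.04 with an adjusted p of 0.0698, and the block left 28 genes called higher and 151 lower, against 29 and 177 without it; the crossed pairing gave 29 and 169. The cause of these losses was not tested. The third acetyltransferase row turned to -0.028 without GS115 replicate 1 and -0.16 without Dmxr1 replicate 1, and the SCaMC-1-like row to -0.048 without GS115 replicate 2 and -0.21 without Dmxr1 replicate 1, all within their errors; over the libraries left out these rows ranged from -0.16 to 0.17 and from -0.21 to 0.28. Over all genes, glmTreat called 5 higher and 16 lower, and leaving out a library gave 23 to 56 higher and 94 to 290 lower. DESeq2 called 28 higher and 170 lower, library size alone 39 and 118, and upper-quartile scaling 38 and 131. ACS1 turned to -0.023 without Dmxr1 replicate 2 and reached 0.090 without Dmxr1 replicate 1. Of 504 values of 36 other genes named, acetyl-CoA carboxylase left out, 461 kept their direction and stayed called or not called. The rest were 29 lost calls, 9 gained calls and 5 changes of sign. Passes on adjusted p alone were not part of this count. With a replicate block the gamma-butyrobetaine dioxygenase row (edgeR adjusted p = 0.122), ACIB2EUKG770705 (0.0983) and the iron carrier (0.104), among others, did not pass. The succinate/fumarate carrier (0.0408) and ACIB2EUKG768638 (0.0357) still passed. With 2 libraries a strain, the spread of a single gene is estimated with little information.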
